A study of Mus musculus with 12 samples.

Results

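The expression of 6 genes for heat shock proteins and other molecular chaperones, Hspa1a, Dnaja1, Hsph1, Hspa8, Hspa5 and Hspd1, was followed in the developing cerebellum of Ts1Cje mice and euploid controls. The members were all probe sets annotated to these genes. There were 7 probe sets, 1 per gene except Hspd1 with 2, among 12488 on the array, and all 7 passed the filter on dim probe sets that left 7453 for testing. In Ts1Cje mice a segment of distal chromosome 16 is present in an additional copy, and the line is a model of Down syndrome. The study set Ts1Cje cerebellum at postnatal days 0, 15 and 30 (P0, P15, P30) beside euploid cerebellum at the same stages. Each of the 6 combinations was 1 RNA pool of 3 cerebella (2 for euploid P30), hybridised to 2 Affymetrix arrays, which gave 12 arrays. Strain background and sex are not given in the labels. A pool averages its animals, so the spread among animals cannot be seen, and the hybridisations of a pool are technical repeats. In whole cerebellum, fewer cells of a type and less RNA per cell cannot be told apart.

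Chaperones bind unfolded or partly folded proteins and use cycles of ATP binding and hydrolysis to help them fold, assemble or be degraded. Heat and other stress activate heat shock factor, which binds repeated GAA units (heat shock elements) in the promoters of inducible chaperone genes. Misfolded protein in the endoplasmic reticulum (ER) acts through a separate pathway, the unfolded protein response, and its own promoter element. Hspa1a encodes the stress-inducible cytosolic HSP70, Dnaja1 a J-domain protein that hands clients to HSP70 and triggers its ATPase, and Hsph1 the HSP105 nucleotide exchange factor of HSP70. These were grouped as heat-inducible. Hspa8 encodes the constitutive cytosolic HSC70, which also uncoats clathrin vesicles at synapses, Hspa5 the ER chaperone BiP, and Hspd1 the mitochondrial chaperonin HSP60. These were grouped as constitutive, although Hspa5 and Hspd1 can be induced by stress in their own compartments. The groups do not follow abundance on these arrays. Dnaja1 and Hsph1, grouped as heat-inducible, had mean signals of 1130 and 431, against 92.3 for Hspa1a and 643 for Hspa5.

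Promoter sequences are shown because heat shock elements separate the pathways through which the members are known to be controlled. RefSeq windows (GRCm38.p6, 250 bases before to 50 after a start site) were listed for 5 of the 6 members. The motifs searched were the 2-unit heat shock element, GAANNTTC or TTCNNGAA, the 3-unit form, in which another GAA or TTC unit continues the alternation after NN, and the ER stress element, CCAAT and CCACG with 9 bases of any kind between them. Both strands were searched, and a 3-unit match contains 2-unit matches. In the following stretches, which run 5′ to 3′ on the gene's strand and end before the start site, capitals mark a match or overlapping matches.
Hspa1a, chr17:34972213-34972300, minus strand: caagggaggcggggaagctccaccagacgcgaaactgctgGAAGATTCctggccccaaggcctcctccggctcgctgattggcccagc
Dnaja1, chr4:40722304-40722391, plus strand: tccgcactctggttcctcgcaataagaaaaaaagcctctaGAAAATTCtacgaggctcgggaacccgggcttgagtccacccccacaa
Hsph1, chr5:149636337-149636409, minus strand: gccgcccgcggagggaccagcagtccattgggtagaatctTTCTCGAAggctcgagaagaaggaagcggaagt
Hspd1, chr1:55088019-55088116, minus strand: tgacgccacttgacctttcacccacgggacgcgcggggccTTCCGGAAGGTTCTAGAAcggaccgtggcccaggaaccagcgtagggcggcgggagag
Hspa5, chr2:34771985-34772083, plus strand: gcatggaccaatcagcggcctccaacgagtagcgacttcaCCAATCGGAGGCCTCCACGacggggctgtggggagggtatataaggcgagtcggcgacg

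The match lay 104 to 97 bases before the start site in Hspa1a, 124 to 117 in Dnaja1, 33 to 26 in Hsph1, 144 to 127 in Hspd1 (second of its 2 listed windows) and 65 to 47 in Hspa5. Of 32851 RefSeq windows, 15.1% held the 2-unit element, 0.603% the 3-unit element and 0.119% the ER stress element. Windows of Hspd1 and Hsph1 held the 3-unit element (in Hsph1 after the start site and not shown), and that of Hspa5 was the member window with the ER stress element. The constitutive Hspd1 and the inducible Hsph1 thus shared a feature that the inducible Hspa1a and Dnaja1 windows lacked. A match is a description of the letters and not evidence of binding. None of these 5 genes lies on chromosome 16.

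Hspa1a lies beside Hspa1b, a near-identical copy, and their promoter windows were identical at 296 of 300 positions. Short array probes may not keep the 2 genes apart, so the Hspa1a values below are uncertain as to the copy. The Hspa1b probe set, with a mean signal of 33.3, is given beside Hspa1a where it bears on it.

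The array check and the tissue check come before the results. Repeat arrays of 1 pool correlated at a median Pearson r of 0.972 over the tested probe sets (6 pairs), against 0.864 between stages (48 pairs). The 20 tested genes of the triplicated segment, of 42 listed, all had estimates higher in Ts1Cje over the 3 stages, with a median log2 difference of 0.50. Within a stage 19 were higher at P0, 19 at P15 and 18 at P30. All 10 measured cerebellar neuron markers were tested, and blood markers, 3 tested of 5 on the array, were lower in Ts1Cje pools at every stage. The actin 3' to 5' ratio, a sign of RNA integrity, was 1.55 and 1.67 in the Ts1Cje P30 pool and 1.13 to 1.43 on the other 10 arrays. Xist, expressed from the inactive X of females, read 105.6 and 77.6 in the Ts1Cje P15 pool and 1.4 to 6.7 on the other 10 arrays.

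Between P0 and P15 the heat-inducible Hspa1a and Dnaja1 fell in both genotypes, and no constitutive member passed the test. These were 2 of 7 member probe sets, both lower, where 28.0% of all 7453 tested probe sets changed in either direction while 13.6% rose and 14.4% fell. That share of members is near the share of all probe sets. The median change of the 6 genes was 0.05 on the log2 scale, against -0.03 over all genes. Cell type markers shifted in the same interval. All 10 cerebellar neuron markers rose, with summed signals of 12838.6 to 17598.4 on the P15 arrays and 3390.3 to 3856.1 on the P0 arrays. Of 11 glial markers 9 rose, while both tested brainstem and forebrain markers fell. More cells of a type and more RNA per cell cannot be told apart in these sums. The part of this shift in the Hspa1a and Dnaja1 values was not tested.

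Hspa1a had MAS5 signals of 145.7 and 128.6 in Ts1Cje and 122.3 and 88.8 in euploid cerebellum at P0, 39.9 and 58.3 in Ts1Cje and 62.2 and 49.2 in euploid at P15, and 89.7 and 119.4 in Ts1Cje and 102.2 and 101.7 in euploid at P30. Every P15 array lay below every P0 and P30 array. Expression of the inducible HSP70 gene was therefore lowest at the middle stage in both genotypes. From P0 to P15 it fell by 1.14 ± 0.19 (log2, SE, 6 pools), 0.454-fold, with a limma adjusted p of 0.00261. The change was -1.42 between the Ts1Cje pools and -0.86 between the euploid pools. The Hspa1b probe set gave -0.37 ± 0.24 over the same interval (adjusted p = 0.303, limma).

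From P15 to P30 Hspa1a rose by 0.93 ± 0.19 on the log2 scale, 1.91-fold, with a limma adjusted p of 0.0328. The change was 1.03 between the Ts1Cje pools and 0.83 between the euploid pools. This call was lost without Ts1Cje P15 (log2 change 0.74, adjusted p = 0.0737, limma), without Ts1Cje P30 (0.97, adjusted p = 0.102), without euploid P30 (0.89, adjusted p = 0.112) and without the first hybridisations (0.98, adjusted p = 0.077), each time with the same direction. The Hspa1b probe set gave 0.01 ± 0.24 (adjusted p = 0.984, limma). The fall at P15 passed the test in all 16 alternative settings.

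Dnaja1 had signals of 1644.9 and 1513.7 in Ts1Cje and 1616.7 and 1652.6 in euploid at P0, 900.5 and 988.2 in Ts1Cje and 975.3 and 1003.7 in euploid at P15, and 741.7 and 726.7 in Ts1Cje and 968 and 829 in euploid at P30. The P0 arrays stood well above all others, and its hybridisations were among the closest on the array, with a root mean square log2 difference of 0.12 that 95.2% of tested probe sets exceeded. Dnaja1 fell by 0.73 ± 0.13 on the log2 scale from P0 to P15, 0.603-fold, with a limma adjusted p of 0.00393. The changes in Ts1Cje and euploid pools were nearly equal, at -0.74 and -0.72. Its call held in all 16 alternative settings. Between P15 and P30 the change was -0.25 ± 0.13 (95% interval -0.55 to 0.05), which did not pass (adjusted p = 0.301, limma).

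Hsph1 had signals of 434.7 and 426.9 in Ts1Cje and 540.7 and 343 in euploid at P0, 470.1 and 471.6 in Ts1Cje and 616.6 and 558.4 in euploid at P15, and 247.9 and 256.7 in Ts1Cje and 375 and 434.9 in euploid at P30. The 2 Ts1Cje P30 arrays were the lowest of the 12. Unlike the other inducible members, its P15 change was 0.28 ± 0.18 (95% interval -0.12 to 0.69, adjusted p = 0.274, limma). The P30 minus P15 change was -0.71 ± 0.18 and just missed the threshold (adjusted p = 0.0631, limma). It passed without either P0 pool (adjusted p = 0.0315 without Ts1Cje P0 and 0.0307 without euploid P0), without euploid P30 (0.0352) and without the second hybridisations (0.0158). Without Ts1Cje P30 the change was -0.46 (adjusted p = 0.592). An array-level fit with the hybridisation number as a block and the pool as a random block also called it (0.0118). That fit takes single arrays as observations, so technical repeats add to its degrees of freedom. The fits without a P0 pool both rest on the same P15 and P30 pools and keep the main estimate, so they are not separate support. Of the 16 alternative settings 5 called this Hsph1 change and 11 did not. Those 11 included the fits without the first hybridisations, without euploid P15 and without Ts1Cje P15.

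**Figure D1:**
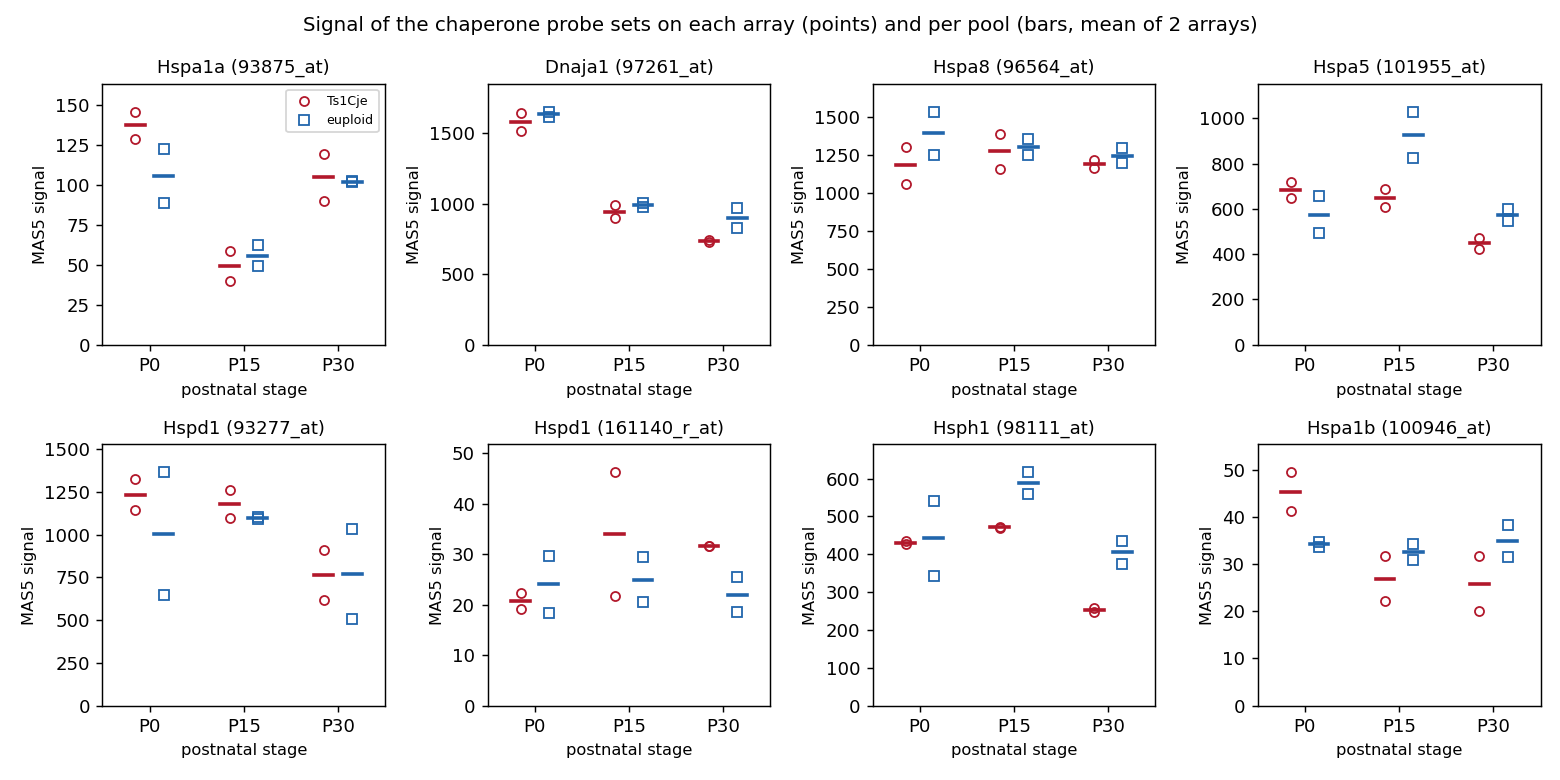
MAS5 signal (linear, from 0) of the 7 member probe sets and of Hspa1b, by postnatal stage. Points are single arrays, Ts1Cje left of euploid, and bars are the mean of the 2 arrays of a pool; Hspa1a is lowest at P15 in both genotypes, Dnaja1 is highest at P0, and the bright Hspd1 arrays of the euploid P0 and P30 pools lie far apart.

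Among the constitutive members, Hspa8 was the steadiest. Its signals were 1302.4 and 1063.1 in Ts1Cje and 1538.1 and 1249.8 in euploid at P0, 1391.7 and 1160.2 in Ts1Cje and 1359 and 1251.6 in euploid at P15, and 1217.3 and 1168.3 in Ts1Cje and 1196.9 and 1299.6 in euploid at P30. The stages overlapped throughout. The change was 0.01 ± 0.12 from P0 to P15 (95% interval -0.28 to 0.30) and -0.08 ± 0.12 from P15 to P30 (95% interval -0.36 to 0.21), with limma adjusted p-values of 0.955 and 0.749.

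Hspa5 had signals of 717 and 646.9 in Ts1Cje and 656.2 and 494.2 in euploid at P0, 688.6 and 609 in Ts1Cje and 1029.6 and 826.1 in euploid at P15, and 422.2 and 473 in Ts1Cje and 547.9 and 600.6 in euploid at P30. The euploid P15 arrays were the highest of the 12 and the Ts1Cje P30 arrays the lowest. From P0 to P15 the change was -0.07 between Ts1Cje pools and 0.69 between euploid pools, and the fit over both gave 0.31 ± 0.19 (adjusted p = 0.267, limma). Without Ts1Cje P0 it was 0.65 and passed (adjusted p = 0.0377), and without euploid P0 it was -0.03. Its P30 minus P15 change was -0.61 ± 0.19 (adjusted p = 0.116, limma), which passed without Ts1Cje P0 (0.0384), euploid P0 (0.0372), Ts1Cje P15 (0.0341) or the second hybridisations (0.0297), and with the hybridisation number as a block (0.0252). Without euploid P15 it was -0.38, and without Ts1Cje P30 -0.49, and neither passed. Of the 16 alternative settings 5 called the P30 minus P15 change of Hspa5 and 11 did not. As for Hsph1, the fits without a P0 pool are not separate support.

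The bright Hspd1 probe set, with a mean signal of 1010, had signals of 1143.6 and 1324 in Ts1Cje and 1363.7 and 647.6 in euploid at P0, 1098.8 and 1259.7 in Ts1Cje and 1101.4 and 1093.8 in euploid at P15, and 617.8 and 909.8 in Ts1Cje and 506.4 and 1033.6 in euploid at P30. The repeat hybridisations differed by 2.1-fold in the euploid P0 pool and almost as much, in the other direction, in the euploid P30 pool. Only 5.6% of tested probe sets had a larger root mean square difference between hybridisations. Hspd1 fell by 0.62 ± 0.14 on the log2 scale from P15 to P30, 0.65-fold (adjusted p = 0.0432, limma). The change was -0.65 between Ts1Cje pools and -0.60 between euploid pools.

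The Hspd1 change differed between the sets of hybridisations. With the second hybridisations alone the change was -0.27 (adjusted p = 0.685, limma), and with the first alone -0.97 (adjusted p = 0.0114). The call was lost, at changes of similar size, without euploid P15 (-0.56, adjusted p = 0.105), Ts1Cje P30 (-0.53, 0.406) or euploid P30 (-0.72, 0.108). It was also lost with the hybridisation number as a block (adjusted p = 0.143). The dim Hspd1 probe set, with signals of 18.3 to 46.2 on the 12 arrays, gave -0.08 ± 0.24 (adjusted p = 0.874, limma). Hspe1, whose HSP10 product caps the HSP60 ring and whose gene lies beside Hspd1, gave -0.47 ± 0.14 (adjusted p = 0.104, limma). From P0 to P15 the bright Hspd1 probe set changed by 0.08 ± 0.14 (adjusted p = 0.716, limma).

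Over P15 to P30, then, 2 of 7 member probe sets were called, Hspa1a higher and Hspd1 lower, where 4.74% of all tested probe sets were called, 1.61% higher and 3.13% lower. Between 0 and 4 member probe sets were called when 1 pool or 1 set of hybridisations was left out. The median change of the 6 genes was -0.43 on the log2 scale, against 0.05 over all genes. Of 8 choroid plexus and meninges markers, 4 rose and 1 fell over the same interval (median 0.91), and their part in the member values was not tested.

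**Figure D2:**
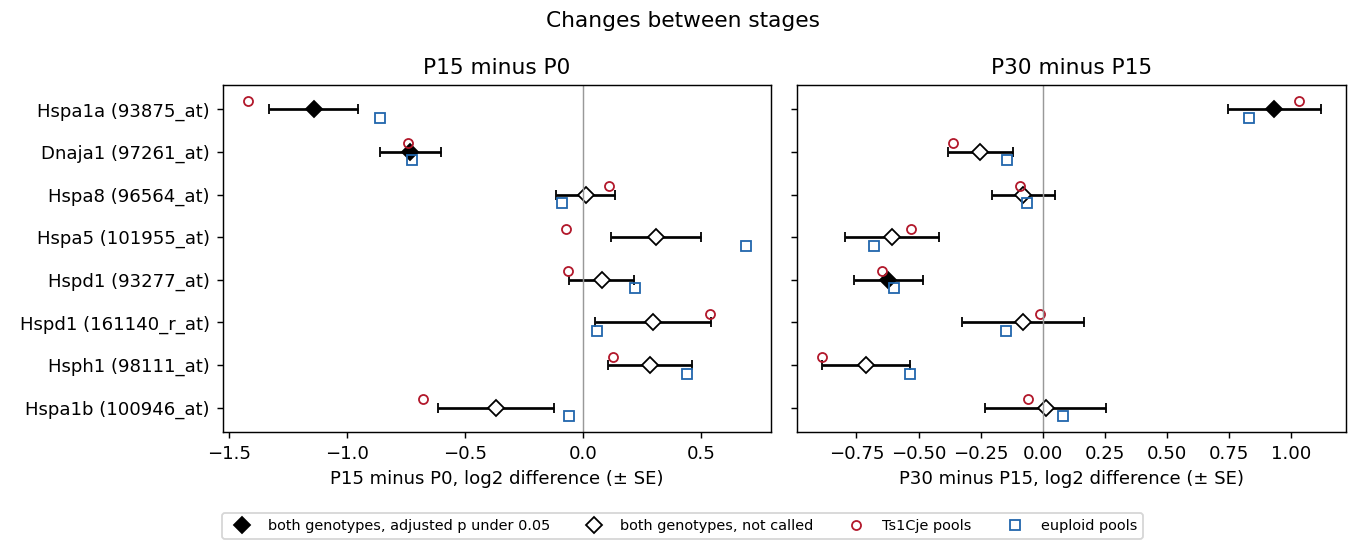
Log2 difference between consecutive stages for each probe set, later minus earlier stage. Diamonds with bars are the fit over both genotypes ± SE (filled where the adjusted p is under 0.05), and open circles and squares are the Ts1Cje and euploid pools alone; the 2 genotypes lie on the same side of 0 for each filled diamond.

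The heat-inducible members differed among themselves in direction in both intervals. In the fit over both genotypes the 3 constitutive members had positive estimates from P0 to P15 and negative ones from P15 to P30. Of these only Hspd1 in the second interval was called. In neither genotype alone were all 3 positive from P0 to P15. For Hspa8, Hspa5 and Hspd1 the Ts1Cje pools gave 0.11, -0.07 and -0.06, and the euploid pools -0.09, 0.69 and 0.22. From P0 to P15 the median change was -0.73 for the inducible genes and 0.08 for the constitutive ones, a difference of -0.81, which was -0.47 when Dnaja1 was counted as constitutive. Hsph1 was on the constitutive side of that difference. Between P15 and P30 the medians were -0.25 for inducible and -0.61 for constitutive genes, a difference of 0.35 that was -0.08 with the second hybridisations alone. Hspa1a rose in that interval while every other member had a negative estimate. With 3 genes a group these medians are descriptions without a test.

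Over the 6 pools the log2 levels of Hspa5 and Hsph1 had the highest correlation of any member pair, with a Pearson r of 0.92. Hspa1a ran against both, at -0.50 with Hspa5 and -0.52 with Hsph1. All pairs share the same 6 pools, whose largest differences are those between stages. Among 5669 other genes, those most like Hspa1a were Mtarc2 (r = 0.983), Ncoa3 (0.982) and Ppp2r1b (0.980). Dnaja1 was most like Vopp1 and Hsbp1 (both 0.995) and Usp14 (0.994), in a pattern so common that 311 genes had r above 0.95 with it. Hspa5 was most like Ncoa4 (0.990), Fubp1 (0.987) and Tmem68 (0.985), and Hsph1 like Ddhd1 (0.979), Fubp1 (0.955) and Plcd1 (0.952). Hspd1 was most like H2az1 (0.985), Sh3gl3 (0.984) and Gp1bb (0.983). Hspa8, which varied little, was most like Papss1 (0.962), Oaz2 (0.947) and Pde6d (0.931).

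Between genotypes no member passed the test over the 3 stages, and 0% of all tested probe sets did, although 2.91% had an unadjusted p under 0.05 and a fit with the hybridisation number as a block called 6 probe sets, none of them a member. The estimate furthest from 0 was Hsph1 at -0.33 ± 0.15 (log2, Ts1Cje minus euploid, SE, 6 pools), with a 95% interval of -0.66 to 0.00 and an unadjusted limma p of 0.052. The others were Hspa5 at -0.20 ± 0.16, Dnaja1 at -0.14 ± 0.11, Hspa8 at -0.11 ± 0.10, Hspa1a at 0.07 ± 0.15 and Hspd1 at 0.18 ± 0.11 and 0.21 ± 0.20 for its bright and dim probe sets. All had an adjusted p of 1. The Hspa1a interval ran from -0.28 to 0.42 and that of Hspa8 from -0.35 to 0.12. The median over the 6 genes was -0.12, against 0.00 over all genes.

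Within a stage there is 1 pool per genotype and no test among samples. The hybridisations of the 2 genotypes did not overlap for 1 member probe set at P0 (Hspa1a, higher in Ts1Cje), for 2 at P15 (Hspa5 and Hsph1, both lower in Ts1Cje) and for 4 at P30 (Hspa5, Hsph1 and Dnaja1 lower and the dim Hspd1 probe set higher in Ts1Cje). Of all tested probe sets, 44.3% did not overlap at P0 (22.4% higher and 21.9% lower in Ts1Cje), 39.5% at P15 (21.0% higher, 18.5% lower) and 39.4% at P30 (19.6% higher, 19.8% lower). The member counts lie below these shares at P0 and P15, and at P30 the 4 of 7 stand beside 39.4%. With quantile normalization 4, 3 and 4 of the 7 did not overlap at P0, P15 and P30, beside 44.8%, 41.3% and 40% of all tested probe sets. Of the comparisons without overlap, Hsph1 at P30 was also at least 1.5-fold apart, as were 7.41% of all tested probe sets at P0, 5.15% at P15 and 4.41% at P30. Hspa5 and Hsph1 were apart and lower in Ts1Cje at both P15 and P30, as were 3.50% of all tested probe sets.

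The log2 differences of Hsph1, Ts1Cje minus euploid, were 0.00 at P0, -0.32 at P15 and -0.67 at P30, where the euploid pool was 1.59-fold higher. With 1 set of hybridisations alone the P0 value of Hsph1 ran from -0.31 to 0.31. The log2 differences of Hspa5 were 0.26, -0.51 and -0.36. Those of Hspa1a were 0.38, -0.18 and 0.02, where the P15 value was 0.23 with the second hybridisations alone. The test of a change of the genotype difference with postnatal day gave -0.67 ± 0.35 per 30 days for Hsph1, -0.61 ± 0.38 for Hspa5 and -0.36 ± 0.41 for Hspa1a, each with a limma adjusted p of 1. No probe set of the array passed it (0%), while 2.59% had an unadjusted p under 0.05. With 1 set of hybridisations alone the Hsph1 change per 30 days ran from -1.06 to -0.28.

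**Figure D3:**
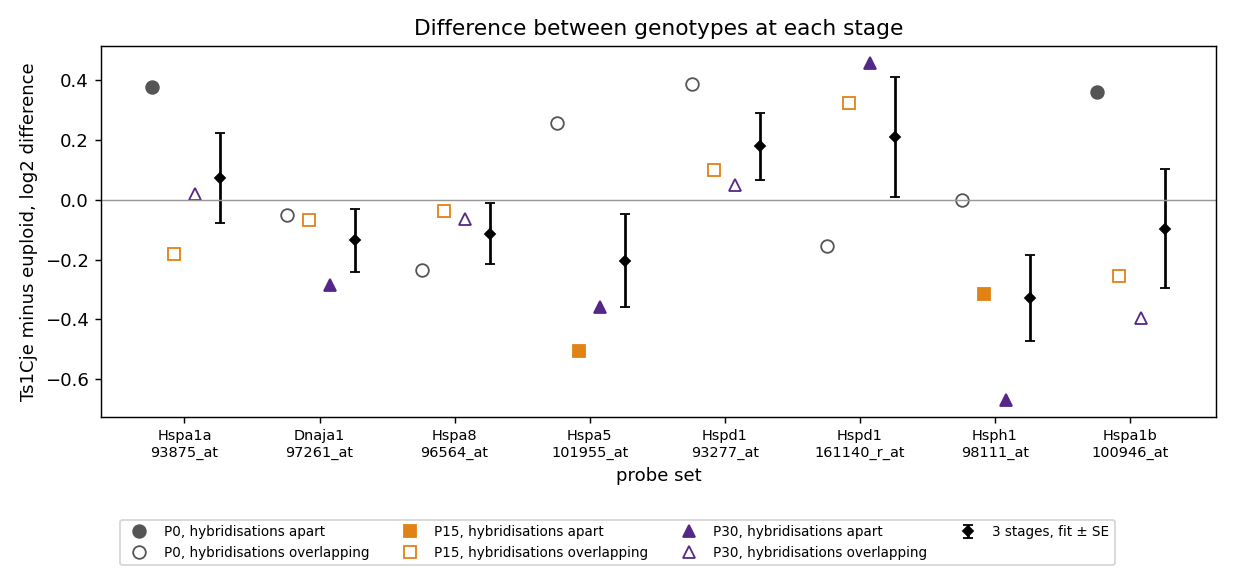
Log2 difference Ts1Cje minus euploid at P0, P15 and P30 (grey circles, orange squares, purple triangles; filled where the 2 hybridisations of one pool lie wholly above or below those of the other), with the fit over the 3 stages ± SE (black diamonds). Hspa5 and Hsph1 are filled and below 0 at P15 and P30, and no black diamond passes the test.

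The Ts1Cje P15 and P30 pools also differed from the euploid pools in other features, not all in the direction of Hspa5 and Hsph1. At P15 all 10 cerebellar neuron markers were lower in Ts1Cje, with summed signals of 12838.6 and 14305.7 in Ts1Cje and 15853.3 and 17598.4 in euploid pools. At P30 9 of the 10 were higher in Ts1Cje, with sums of 16246.5 and 17376.8 in Ts1Cje and 15174.9 and 14579.8 in euploid. Of 8 microglia markers, 7 were higher in Ts1Cje at P15, with sums of 765.1 and 782.1 in Ts1Cje and 598.3 and 586.7 in euploid. At P30 4 of these 8 were higher and 4 lower in Ts1Cje (median 0.01). Blood marker sums ran from 2562.8 to 3431.3 in Ts1Cje pools and from 4518.6 to 8080.3 in euploid pools over the 3 stages, with Slc4a1 and Epb42 under the filter. Median differences at P15 and P30 were 0.10 and -0.33 for 11 glial markers, -0.03 and 0.08 for 7 endothelial markers, 0.31 and 0.14 for 8 choroid plexus and meninges markers, and 0.28 and 0.18 for 2 brainstem and forebrain markers. The actin ratio, but not the Gapdh ratio, was highest in the Ts1Cje P30 pool and Xist in the Ts1Cje P15 pool, as given above. The part of any of these in the Hspa5 and Hsph1 values was not tested.

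The wider chaperone system was described from lists holding 134 genes, of which 98 were on the array and 86 tested, members included. From P0 to P15, 10 of the 86 rose and 11 fell, beside 818 rises and 806 falls among all 5670 genes. From P15 to P30, 2 rose and 2 fell, beside 96 rises and 187 falls among all genes. Between genotypes 0 of the 86 had a limma adjusted p under 0.05. Of the chaperone genes named below, Dnajc2, Fkbp4, Cryab and Cct6a were read from probe sets whose names end in _f_at, a mark of probes shared by related sequences, so their gene is uncertain.

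In the HSP70 family, 2 of 10 tested genes rose from P0 to P15 and 1 fell (median 0.20). Hspa2, a member abundant in testis and also found in brain, rose (adjusted p = 0.000335, limma), with signals of 39.7 to 60.8 on the P15 arrays and 3.5 to 9.2 on the P0 arrays. All 4 of its P0 arrays lay under 20.1, the mean signal a probe set needed to be tested, so it was tested only through the later stages and no size is given. Hspa14, a ribosome-associated member, rose by 0.89 ± 0.21 with 2 of 4 P0 arrays under that level, while Hspa1a fell. Both genes that rose were thus dim on some or all P0 arrays. Of the 10 tested estimates 7 were positive and 3 negative. The uncalled Hspa1b probe set was at -0.37 ± 0.24 (adjusted p = 0.303, limma). Among 20 J-domain genes, 2 rose and 4 fell (median -0.26). Dnajc3, an ER protein that inhibits the kinase PERK, rose by 0.91 ± 0.17 and the neuron-enriched Dnajb2 by 0.73 ± 0.20. Dnajc2, which acts at the ribosome, fell by 1.06 ± 0.16 and Dnajc17 fell by 0.79 ± 0.19, beside Dnaja1 and the heat-inducible HSP40 gene Dnajb1, which fell by 0.65 ± 0.15.

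The chaperonin and prefoldin list, whose products fold actin and tubulin among other clients, had 0 rises and 4 falls among 15 tested genes (median -0.32). Cct4 fell by 0.80 ± 0.15, Cct6a fell by 0.69 ± 0.18 and Cct5 fell by 0.65 ± 0.14, all subunits of the cytosolic ring, and Cct7 also fell. The mitochondrial list had no call among 7 genes, and its largest value was Dnaja3 at 0.36 ± 0.16 (adjusted p = 0.134, limma). Hsbp1, a heat shock factor binding protein and the 1 tested gene of the heat shock factor list, fell by 0.88 ± 0.14.

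Of 20 ER chaperone and unfolded protein response genes, 3 rose from P0 to P15 and 0 fell (median 0.15), beside 818 rises and 806 falls among all 5670 genes. The list's share of rises is near that of all genes. The 3 that rose were Dnajc3, Xbp1, a transcription factor of this response, at 0.78 ± 0.23, and Ddit3, encoding the transcription factor CHOP (adjusted p = 0.00697, limma). Ddit3 signals were 14.6 to 65.8 at P15 and 4.5 to 36.6 at P0, where 3 of 4 arrays lay under 20.1, so the size of its rise is uncertain. Hspa5 belongs to this list and was not called. In the HSP90 system 2 of 8 rose (median 0.14), Chordc1 by 0.68 ± 0.16 and Fkbp4 by 0.58 ± 0.16. Of 10 HSP70 cochaperones 1 rose (median -0.13), Bag3, an exchange factor linked to autophagy, whose P15 signals were 18 to 37.5 and P0 signals 6.6 to 15, all 4 of these under 20.1 (adjusted p = 0.0131, limma). Of 3 small heat shock proteins 1 rose (median 0.21), the lens and glial protein gene Cryab, with 43.3 to 54.8 at P15 and 16.7 to 23.4 at P0, where 3 of 4 arrays lay under 20.1 (adjusted p = 0.00712, limma).

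A list of 10 other heat-inducible genes had 3 rises and 2 falls (median -0.22). Cryab, Bag3 and Chordc1 rose, while Dnajb1 fell and Cacybp, a ubiquitin ligase adaptor, fell by 1.32 ± 0.21. Bag3 had 4 of 4 P0 arrays under the filter level and Cryab 3 of 4, so both entered the test through their later stages. A gene that dim at P0 is tested only if it is brighter later, so these rises cannot show which way the list went. Of the called genes with no P0 array under that level, Chordc1 rose, while Dnajb1 and Cacybp fell, as did Hspa1a and Dnaja1. Keeping genes by their P0 signal selects on the starting stage and can favour falls, so this tally cannot show the direction either. Over all 10 tested genes of the list 4 estimates were positive and 6 negative, most of them uncalled. From P15 to P30 the calls beside Hspa1a and Hspd1 were Hspb8, a small heat shock protein gene, higher by 0.85 ± 0.17 (adjusted p = 0.0339, limma), and Pdia3, an ER disulfide isomerase gene, which fell by 0.80 ± 0.15 (adjusted p = 0.0244, limma). Dnajb9, another ER gene, was at -0.84 ± 0.20 (adjusted p = 0.0514, limma), Bag3 at 0.75 ± 0.23 (0.116), Hsbp1 at -0.44 ± 0.14 (0.114) and Cdc37, an HSP90 cochaperone, at 0.55 ± 0.21 (0.18).

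Between genotypes the largest estimates per list, each with a limma adjusted p of 1, were Hspa14 at -0.35, Dnajb2 at -0.30, Stip1 at -0.20, Bag3 at 0.30, Cryab at -0.22, Tcp1 at 0.27, Hsbp1 at -0.16 and Ddit3 at 0.59. The ER list, with Hspa5, had 15 of 20 negative estimates (median -0.09), beside 50.7% of all genes. This was not particular to it. The HSP90 system had 7 of 8 negative, the HSP70 family 7 of 10, its cochaperones 7 of 10 and the chaperonin list 10 of 15. J-domain genes had 12 of 20, the mitochondrial list 5 of 7 and small heat shock genes 1 of 3. In the ER list 7 of 20 were negative at P0 (median 0.09), 13 at P15 and 15 at P30 (medians -0.11 at both), beside 47.8%, 49.5% and 50.7% of all genes. At P30 the HSP90 system had 7 of 8 negative, the HSP70 family 8 of 10, the chaperonin list 11 of 15 and J-domain genes 10 of 20. The other heat-inducible genes were negative in 5 of 10 cases at P0 (median 0.00), 6 at P15 (median -0.14) and 8 at P30 (median -0.18). The change of the genotype difference with postnatal day was largest for Hspa1b at -0.76, Dnajb9 at -0.70, Hsp90aa1 at -0.52, Bag1 at -0.65, Cryab at -0.36, Cct6b at -1.10, Hsbp1 at -0.16 and Ddit3 at -0.80 in their lists, again each with an adjusted p of 1.

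**Figure D4:**
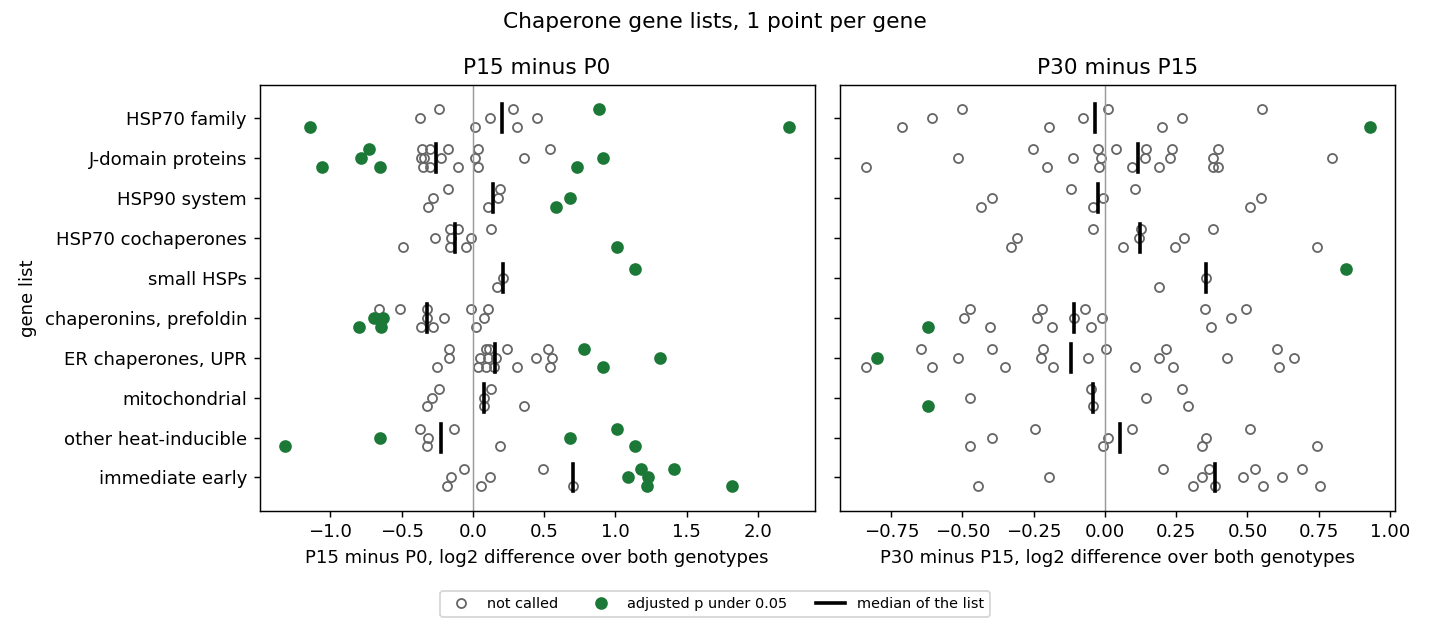
Log2 differences P15 minus P0 (left) and P30 minus P15 (right) for the genes of each list, 1 point per tested gene, filled where the adjusted p is under 0.05, with the list's median as a bar; a gene can be in more than 1 list. The chaperonin list has calls on the falling side alone from P0 to P15, and the immediate early list on the rising side alone.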

How the data were processed

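Per the submitters' processing notes, the authors made the deposited intensity values with MAS5, which combines the probes of a probe set into 1 linear signal. The sources used here do not give its version or settings, and detection calls were not used. All arrays had been scaled alike: the mean after trimming 2% at each end was 100.05 to 100.06, and the median signal 30.4 to 36.2. Signal over background and the number of arrays limit precision.

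From these, log2(signal + 4.6) was taken (4.6 is the 20th percentile), so fold changes of dim probe sets are understated. The 66 control probe sets and those with a mean under 20.1 (40th percentile) were left out, leaving 7453 probe sets and 5670 genes, each represented by its brightest probe set. The platform annotation gives 1 symbol to 10855 probe sets, several to 396 and none to 1237.

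The log2 values of a pool's hybridisations were averaged, and each pool counted as 1 replicate. limma 3.58.1 in R 4.3.3 (lmFit, eBayes with trend) fitted genotype and stage over the 6 pools (2 residual degrees of freedom, prior 6.39), and in a second model genotype by postnatal day (1 residual, prior 9.51). Tests were two-sided, adjusted by Benjamini-Hochberg over all 7453 with a threshold of 0.05, and were tested on simulated data. The p-values reflect variation among single pools, which may be largely technical. The smallest p from permuting pools within stage is 0.25. Figures used matplotlib 3.10.9 in python 3.11.15.

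Members and lists (chaperone families, ER and mitochondrial chaperones, heat-inducible and immediate early genes, the triplicated segment, markers of cerebellar neurons, glia, choroid plexus and meninges, blood, endothelium, microglia, brainstem and forebrain) were chosen with earlier results of these data known. Genes were named by a rule: per list and comparison up to 3 called rises and 3 falls of largest size, otherwise the 1 largest value, plus all member probe sets and the 3 genes most correlated with each member. Dnajb1 under J-domain genes, Cct7, Hspe1, Hspa1b and Junb were added after their values were seen. Alternatives were another pseudocount, filter, normalization and moderation, and each pool and hybridisation left out. The last was an array-level fit with the hybridisation number as a block and the pool as a random block. Same-numbered hybridisations deviated together in all 3 same-stage pairs of pools (r = 0.14 to 0.354) and in all 4 pairs of a P0 with a P15 pool (0.15 to 0.309), but in none of the 8 pairs of a P30 with an earlier pool (-0.124 to 0.0707), taking r over 0.1 as the mark. The labels do not say what the numbers share.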

Additional observations from a re-analysis of the deposited data

How the results depend on the processing

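The 2 member calls from P0 to P15 kept their side of the threshold in all 16 alternative settings. From P15 to P30 the 2 member calls became 0 with no filter on dim probe sets, 0 with moderation without a trend and 1 with quantile normalization, and 0 to 4 when a pool or a set of hybridisations was left out. Over all probe sets, calls for that interval were 353, against 199 with no filter, 183 without a trend and 98 to 746 with something left out. Genotype calls over all probe sets were 0, against 0 to 6 with something left out, and genotype by day calls 0, against 0 to 9. Hybridisation numbers paired arrays within a stage but not between P30 and earlier stages. An array-level fit with the number as a block and the pool as a random block called 6 probe sets for genotype and 898 for P15 to P30. Among the 898 were Hspa1a, Hspa5 (adjusted p = 0.0252, limma) and Hsph1 (0.0118) but not Hspd1 (0.143), and no other member call changed. Technical repeats add to the degrees of freedom of that fit, so its larger counts are not stronger evidence.

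The count of member probe sets apart between genotypes within a stage was 7 of 21, and 11 with quantile normalization. The inducible minus constitutive difference from P0 to P15, -0.81, was -0.47 with Dnaja1 counted as constitutive and -0.99 to -0.76 with 1 set of hybridisations. Directions that turned belonged to uncalled values: with something left out, genotype Hspa1a ran from -0.17 to 0.32, P15 minus P0 Hspa8 from -0.081 to 0.104 (-0.0071 with median centring), Hspa5 from -0.035 to 0.65 and Hspd1 from -0.18 to 0.34, P30 minus P15 Hspa8 from -0.19 to 0.032 and the dim Hspd1 probe set from -0.52 to 0.36, and genotype by day Hspd1 from -1.21 to 0.54. Of the 21 within-stage genotype differences, 10 changed sign with 1 set of hybridisations, among them Hspd1 at P0 (-0.25 to 1.03) and Hspa1a at P15 (-0.59 to 0.23). Causes were not tested. Leaving out a pool leaves the genotype by day model without residual degrees of freedom, so it was not run there. The dim Hspd1 and Hspa1b probe sets lie near background, which limits what their values show.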

Other observations

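Immediate early genes, which neurons transcribe within minutes of activity or stress, were measured beside the chaperones. From P0 to P15, 6 of 13 tested genes rose and 0 fell, with a median of 0.70 on the log2 scale, against -0.03 over all genes, of which 818 of 5670 rose and 806 fell. Fos, a transcription factor gene, rose by 1.82 ± 0.16 (adjusted p = 0.000151, limma, 6 pools) and Ier2 by 1.23 ± 0.23, in the interval in which Hspa1a and Dnaja1 fell. Gadd45b, a stress-response gene, also rose (adjusted p = 0.00275, limma), with 27.8 to 41.7 at P15 and 3.5 to 21.8 at P0, where 3 of 4 arrays lay under 20.1, so the size is uncertain. Junb is also among the 6 rises, with P0 signals of 8 to 16.9. All 4 of its P0 arrays lay under 20.1, so it was tested only through the later stages. From P15 to P30 none was called, with 11 of 13 estimates positive, and the largest was Dusp1, a MAP kinase phosphatase gene, at 0.75 ± 0.23 (adjusted p = 0.106, limma). Between genotypes none was called, and the largest value was Nr4a1, encoding a nuclear receptor, at 0.44 ± 0.15 (adjusted p = 1, limma). The change of the genotype difference with postnatal day was largest for Egr1 at 0.94 ± 0.43 per 30 days (adjusted p = 1, limma).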
